A study of Mus musculus with 40 samples.

Results

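The effect of losing Ikaros was compared between 2 stimulated states of mouse follicular (FO) B cells, as the effect after CpG minus the effect after HEL. Of the 24732 genes in each deposited file, 7843 were kept, namely those with a mean of at least 5 TPM (transcript abundance scaled to length and depth) in at least 1 arm of both settings. The choice used levels alone and leaves out genes that are silent in one of the settings. Just inside the limit were Rph3al and Tulp3, whose higher arm reached 5.003 and 5.004 TPM in the setting where they were lower, and just outside it were Slc8b1 at 4.991 and Iqcb1 at 4.99 TPM. All 7843 also passed the filter on low values that defined the 11050 tested genes. Among tested genes left out by the limit, Apoe was at 196 TPM in HEL no-Cre cells but at most at 2.11 TPM in either CpG group, and Pcp4 was at 23.1 TPM in HEL Cre cells but at 0.142 TPM or less in the CpG groups (both picked for display after their values were seen).

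All cells were FACS-sorted FO B cells of C57BL/6 mice carrying MD4, which gives B cells a transgenic receptor (BCR-tg) against hen egg lysozyme (HEL). The Ikaros-deficient CpG cells were Cd23-cre Ikzf1(fl/-) (4 libraries, called CpG fl/-) and their controls Cd23-cre Ikzf1(fl/+) (4 libraries, CpG fl/+), both kept for 1 day in culture with CpG, a DNA ligand of the receptor Tlr9. The Ikaros-deficient HEL cells were Cd23-cre Ikzf1(fl/fl) (5 libraries, HEL Cre) and their controls Ikzf1(fl/fl) without Cre (5 libraries, HEL no-Cre), both taken from mice 1 day after intravenous HEL. Cd23-cre is driven by the gene of a surface receptor that appears as B cells mature, so deletion of floxed alleles comes late in B cell development. The CpG controls thus carried Cre and 1 Ikzf1 allele without loxP sites, whereas the HEL controls carried no Cre and a floxed pair of alleles. Once floxed alleles are deleted, the CpG controls keep 1 Ikzf1 allele, whereas the HEL controls, without Cre, keep both. The Ikaros-deficient CpG cells carried a floxed and a null allele, and the Ikaros-deficient HEL cells a floxed pair. Stimulus, culture against mouse, genotype of the controls and of the deficient cells, and the run of library numbers all change together between the settings. They cannot be told apart in what follows. Whether each library is a separate mouse is not in the labels, and p-values therefore rest on library-to-library spread, part of which may be technical.

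Ikaros is a zinc finger protein that binds DNA and recruits chromatin-remodelling and histone deacetylase complexes, among them NuRD, and it can lower or raise the transcription of its targets. In B cells it is known as a factor of lineage commitment, and in mature cells it sets the threshold for activation. HEL given to MD4 mice engages the B cell receptor, which induces immediate early genes within minutes and, when antigen persists, leads to anergy, a state of poor response. CpG acts through Tlr9 and Myd88 inside endosomes and drives growth, division and survival programmes without antigen.

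Ikzf1 was lower in every library with deletion than in any control of its setting. The gene was at 39.5, 39.4, 35.7 and 31.7 TPM in the CpG fl/- libraries, against 172, 135, 149 and 140 TPM in the CpG fl/+ libraries. It was at 68.7, 63.9, 66.4, 60.3 and 79.3 TPM in the HEL Cre libraries, against 214, 195, 261, 200 and 205 TPM in the HEL no-Cre libraries. The effect was -1.99 ± 0.10 (log2, ± standard error) with CpG and -1.65 ± 0.09 with HEL, and the difference between the settings did not pass (-0.34 ± 0.14, adjusted p = 0.084; here and below adjusted p is limma's, Benjamini-Hochberg over the 11050 tested genes). A gene-level TPM includes any transcript that lacks the deleted exons, so it is not a measure of intact mRNA. The family member Ikzf3 (Aiolos) had 51.7 ± 6.32 TPM in CpG fl/- cells and 55.4 ± 8.92 TPM in CpG fl/+ cells (SD, n = 4 each), and 264 ± 35.7 TPM in HEL Cre cells and 242 ± 16.7 TPM in HEL no-Cre cells (n = 5 each), and its difference did not pass either (-0.21 ± 0.16).

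Depth was 12126702 to 16086067 recovered reads in the CpG libraries and 16085832 to 25424364 in the HEL libraries. The 10 listed B cell markers summed to 4070 to 6023 TPM in CpG fl/- libraries, against 5990 to 8622 TPM in CpG fl/+ libraries, and to 49100 to 53381 TPM in HEL Cre libraries, against 48100 to 51861 TPM in HEL no-Cre libraries, in HEL libraries most of it from Cd74. In bulk RNA, fewer cells of a type and less RNA per cell cannot be told apart. T cell markers summed to 1.2 TPM at most in all 18 libraries, and Cd3e was at 0 in every CpG fl/- and HEL Cre library. Myeloid markers summed to 6.5 to 8.05 TPM in CpG fl/- libraries and 1.93 to 17.9 TPM in CpG fl/+ libraries, and to 31.2 to 43.3 TPM in HEL Cre libraries, against 14.2 to 18.5 TPM in HEL no-Cre libraries. Y-linked genes were detected in all 8 CpG libraries and in replicates 4 and 5 of both HEL groups, so the HEL arms were matched to each other in sex but not to the CpG arms. In the HEL series, replicates 1 to 4 of HEL no-Cre have consecutive library numbers and replicates 1 to 4 of HEL Cre the next ones. Genotype thus follows blocks of numbers there. The CpG libraries fall into a lower and a higher run of library numbers with 2 libraries per genotype each. Neutrophil markers reached 123 TPM in CpG fl/+ replicate 4, of the higher run, and at most 18.4 TPM in each of the other CpG libraries. Interferon-stimulated genes were also higher in the higher run within each CpG genotype, as given further down. Of the 162 named genes with a called difference, 32 lost the call with the lower run alone and 19 with the higher run alone, each fit with 2 libraries per CpG arm, and this is said beside those described.

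Among the kept genes, 1776 had a called difference (22.6%; over all tested genes it was 22.4%), called meaning an adjusted p under 0.05. For 1224 of them (15.6%) the CpG effect lay above the HEL effect, and for 552 (7.04%) below it. These shares of all kept genes are the ones to set beside the counts of higher and lower list members below. Rescaling the libraries by median-ratio size factors moved the median difference of all kept genes, 0.075 on the log2 scale, to 0.021 and gave 949 higher and 786 lower, with 1500 genes called in the same direction under both scalings. Sizes were modest: the median absolute difference of called genes was 0.487, while 67 genes were higher and 87 lower by at least 1. With the 4 CpG libraries of the lower numbers alone 1109 genes were called, and with the 4 of the higher numbers alone 1880.

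**Figure D1:**
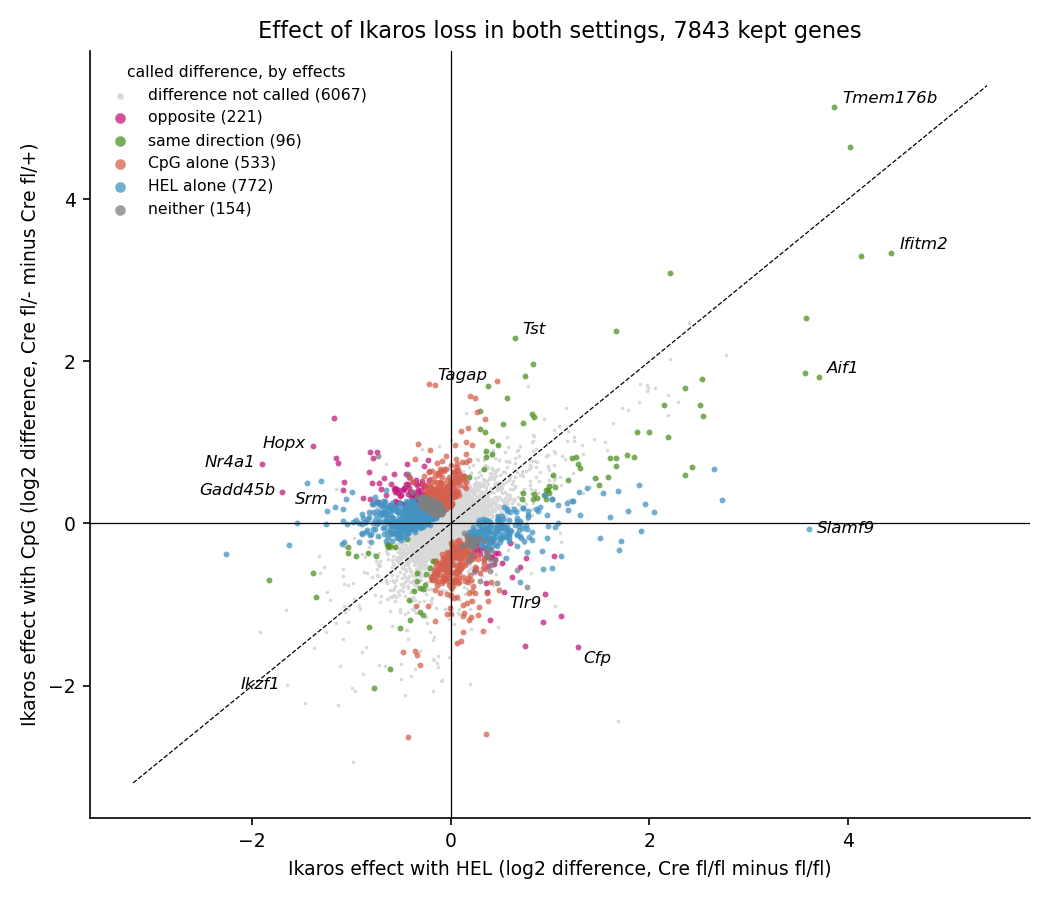
Effect of Ikaros loss with HEL (x axis, log2 difference, HEL Cre minus HEL no-Cre) against the effect with CpG (y axis, log2 difference, CpG fl/- minus CpG fl/+) for the 7843 kept genes, coloured by the pattern of called effects, with a dashed line where both are equal. The 221 opposite genes lie in the upper left and lower right, and the strongest shared rises (Tmem176b, Ifitm2) in the upper right.

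The called differences were sorted by which effect was itself called. Here and below, a change with CpG alone or HEL alone was not called in the other setting. It was not shown to be absent there. Taken alone, the CpG effect was called higher for 956 kept genes (12.2%) and lower for 909 (11.6%), and the HEL effect higher for 700 (8.93%) and lower for 1693 (21.6%). In 772 of the 1776 genes (43.5%) the effect was called with HEL alone, in 533 (30.0%) with CpG alone, in 221 (12.4%) in both settings with opposite signs, in 96 (5.41%) in both with the same sign, and in 154 (8.67%) in neither. Opposite effects were uneven: 184 genes rose with CpG and fell with HEL, and 37 fell with CpG and rose with HEL. The median effect of all kept genes was 0.009 with CpG and -0.083 with HEL. With median-ratio scaling 195 genes were opposite, and their split by direction was not examined. The opposite count was 145 without CpG fl/+ replicate 4, 101 with the lower CpG library numbers alone and 209 with the higher ones alone. All groups shared the same estimate of the spread. With library weights set by group, effects were called for 1275 genes with CpG and 3011 with HEL, and 150 were opposite. The main fit called 1865 and 2393, so the shares of the patterns rest on this choice too.

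Immediate early genes, which antigen receptor signalling induces first, held Nr4a1, which had the largest difference among genes that rose with CpG and fell with HEL. Of 25 listed genes 14 were kept, and 8 of these lay higher with CpG and 0 lower (6 and 1 with median-ratio scaling; 6 to 8 and 0 to 2 with 1 library left out), with a median difference of 0.62 beside 0.075 over all kept genes. By limma at an unadjusted p under 0.05 the counts were 8 higher and 1 lower, and by voom on recovered reads (adjusted) 8 and 1. Within CpG 3 of the 14 rose and 4 fell in fl/- cells, and within HEL 0 rose and 8 fell in Cre cells. The median effect of the list was -0.051 with CpG and -0.60 with HEL, so the list as a whole did not rise with CpG. Of all kept genes 12.2% rose and 11.6% fell with CpG, and 8.93% rose and 21.6% fell with HEL. Nr4a1, an orphan nuclear receptor induced by B cell receptor signalling, was at 18.6, 15.5, 20.2 and 17.1 TPM in the CpG fl/- libraries, against 11.2, 9.41, 10.7 and 10.1 TPM in the CpG fl/+ libraries. It was at 5.26, 6.24, 4.97, 10.6 and 7.02 TPM in the HEL Cre libraries, against 19.3, 20.9, 27.2, 35.3 and 38.9 TPM in the HEL no-Cre libraries. In both settings the arms did not overlap, but the arm without Ikaros was the higher one with CpG and the lower one with HEL. The CpG effect was 0.73 ± 0.21, the HEL effect -1.90 ± 0.18 and the difference 2.63 ± 0.28 (adjusted p = 4.63e-06).

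Dusp2, a phosphatase that switches off MAP kinases, repeated this pattern, with 129, 126, 134 and 125 TPM in the CpG fl/- libraries, against 93.9, 72.3, 58.4 and 71.9 TPM in the CpG fl/+ libraries. With antigen it had 66.4, 52.4, 62.6, 73.1 and 53.2 TPM in the HEL Cre libraries, against 102, 129, 177, 146 and 143 TPM in the HEL no-Cre libraries. Neither pair of arms overlapped, and the difference was 1.96 ± 0.20 (adjusted p = 3.11e-06). Egr1, a zinc finger transcription factor of the same response, was at 30.2, 23.9, 26.3 and 22.6 TPM in the CpG fl/- libraries, against 12, 15.3, 13.4 and 16.6 TPM in the CpG fl/+ libraries. After antigen the arms overlapped, with 10.5, 8.13, 12.8, 16.7 and 20.3 TPM in the HEL Cre libraries, against 19.9, 18.4, 35, 22.2 and 23.9 TPM in the HEL no-Cre libraries. Its difference was 1.60 ± 0.29 (adjusted p = 0.000916). Nab2, a co-repressor that binds Egr proteins and whose gene overlaps another, differed by 1.89 ± 0.25, with a CpG effect of 0.75 ± 0.18 and a HEL effect of -1.14 ± 0.17.

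The remaining called immediate early genes moved mainly with HEL. Ier2 (-0.77 ± 0.14), Zfp36, which promotes mRNA decay (-0.81 ± 0.13), and Junb (-0.44) fell in HEL Cre cells, while their CpG effects were not called. The Zfp36 difference lost its call with the higher run alone (CpG effect 0.20 in the lower run and -0.49 in the higher). So did the activation marker Cd69 (-1.10 ± 0.20, chosen after its values were seen), but its difference of 0.85 ± 0.29 (adjusted p = 0.0455) lost its call in 12 of 18 fits that left out 1 library and with the higher run alone (CpG effect 0.048 in the lower run and -0.56 in the higher). Jund, an AP-1 subunit, was called in neither setting but had a difference of 0.62 ± 0.16. Not every member followed: Dusp5 had nearly equal effects of -1.09 with CpG and -1.07 with HEL, and the 6 members without a call also held Jun, Ier5, Btg2, Klf6 and Zfp36l1.

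The sequence just before the Nr4a1 start is shown because this gene has the largest difference among those that rose with CpG and fell with HEL, with matches to TGACG, a motif of cAMP response elements, in capitals. Both strands were searched, and all matches here lie on the minus strand, so that the printed strand shows the reverse complement. The window holds the 250 bases before the RefSeq start on GRCm38.p6, chr15:101266596-101266845, plus strand, 5′ to 3′.
Nr4a1: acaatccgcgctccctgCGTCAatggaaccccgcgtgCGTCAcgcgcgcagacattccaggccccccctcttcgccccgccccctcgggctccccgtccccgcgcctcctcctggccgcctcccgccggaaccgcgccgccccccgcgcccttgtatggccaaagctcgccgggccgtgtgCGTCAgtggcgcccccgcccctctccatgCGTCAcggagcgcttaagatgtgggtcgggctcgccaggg
It holds 4 copies of the motif, none overlapping another. Of all 27025 promoter windows of this length 17.9% held at least 1 copy, as did 11 of 21 immediate early genes with a window and 12 of 23 genes of the list for Myc and ribosome biogenesis.

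Further genes with opposite effects were outside the list. Gadd45b, a stress-induced regulator of MAP kinase signalling, was at 467, 398, 531 and 504 TPM in the CpG fl/- libraries, against 315, 303, 477 and 375 TPM in the CpG fl/+ libraries. Its fall with antigen was larger, with 15.6, 14.7, 15.1, 18.2 and 12.9 TPM in the HEL Cre libraries, against 54.8, 52.9, 51.8, 55.5 and 44.4 TPM in the HEL no-Cre libraries. The CpG arms overlapped and the HEL arms did not, with a difference of 2.09 ± 0.17 (adjusted p = 4e-07). Hopx, an atypical homeodomain protein that does not bind DNA itself, had 96, 93.9, 95.5 and 95.7 TPM in the CpG fl/- libraries, against 68.1, 47.6, 47.3 and 35.9 TPM in the CpG fl/+ libraries. It had 10.2, 12.3, 10.8, 10.3 and 9.46 TPM in the HEL Cre libraries, against 25.5, 25.1, 25.5, 32 and 41 TPM in the HEL no-Cre libraries. Both pairs of arms were apart, and the difference was 2.35 ± 0.21 (adjusted p = 9.35e-07). Fkbp11, a prolyl isomerase of the secretory pathway, completed the 6 largest differences of this pattern with 2.48 ± 0.31, from a CpG effect of 1.30 ± 0.23 and a HEL effect of -1.18 ± 0.21.

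**Figure D2:**
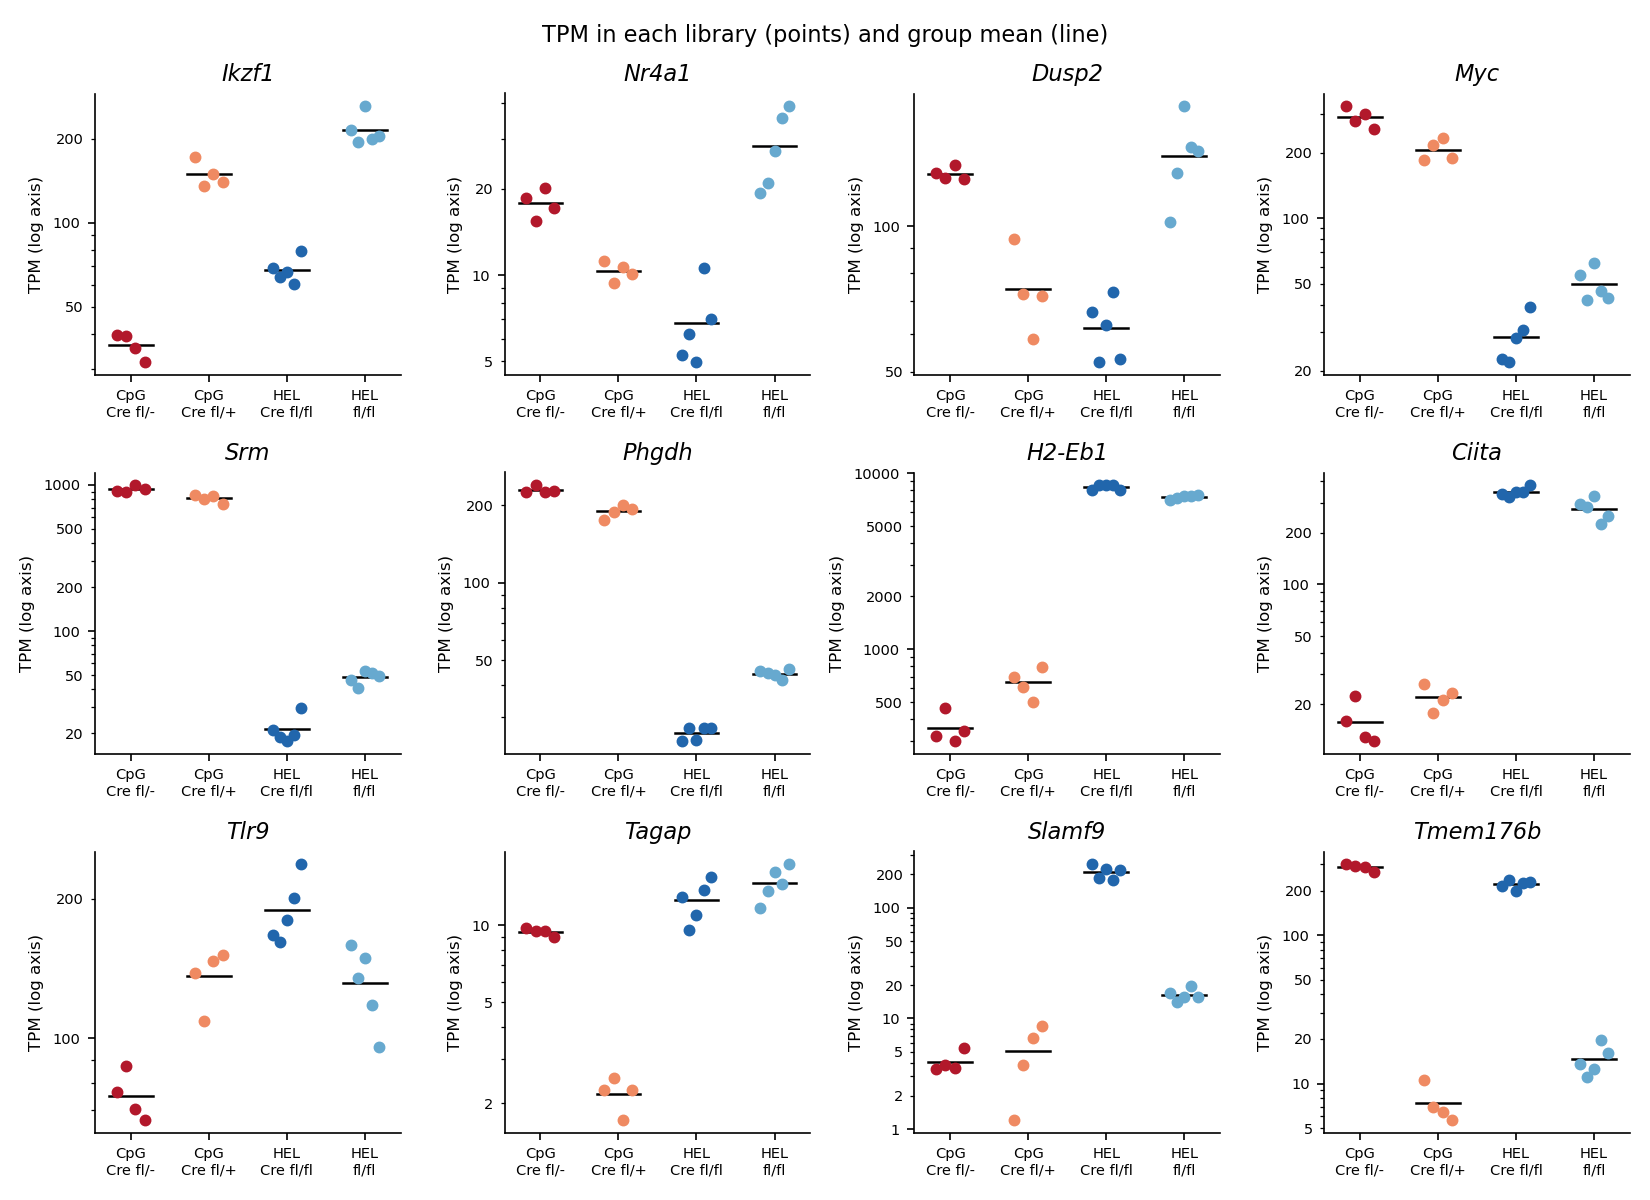
TPM of 12 genes in each library (points; y axis, TPM on a log axis) in CpG fl/-, CpG fl/+, HEL Cre and HEL no-Cre cells, with the mean of each group as a line. Ikzf1 is lower in both groups with deletion, Nr4a1, Dusp2 and Myc are higher in CpG fl/- and lower in HEL Cre cells than in their controls, and Tlr9 is the reverse.

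Genes of Myc and ribosome biogenesis formed the list with the most called members. All 30 listed genes were kept, and 15 lay higher with CpG and 0 lower (15 to 21 higher with 1 library left out), with the same counts under median-ratio scaling and a median difference of 0.45. With HEL 23 of the 30 fell and 0 rose in Cre cells, and with CpG 3 rose and 0 fell in fl/- cells. Of all kept genes 21.6% fell and 8.93% rose with HEL, and 12.2% rose and 11.6% fell with CpG. For the difference, the counts at an unadjusted limma p under 0.05 were 23 higher and 0 lower, and voom's adjusted counts 18 and 0. Myc itself, the transcription factor that drives this programme (chosen after its values were seen), was at 326, 279, 301 and 256 TPM in the CpG fl/- libraries, against 185, 217, 233 and 189 TPM in the CpG fl/+ libraries. It was at 22.7, 21.9, 28.3, 30.8 and 39.1 TPM in the HEL Cre libraries, against 54.7, 42.1, 62.5, 46.2 and 42.9 TPM in the HEL no-Cre libraries. Neither pair of arms overlapped, with opposite effects of 0.49 ± 0.16 with CpG and -0.79 ± 0.14 with HEL and a difference of 1.29 ± 0.21 (adjusted p = 0.000305).

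Ppan, a factor of large ribosomal subunit assembly, also had opposite effects, with 221, 212, 228 and 212 TPM in the CpG fl/- libraries, against 189, 190, 174 and 159 TPM in the CpG fl/+ libraries. With antigen it had 23.7, 24, 25.8, 28 and 30 TPM in the HEL Cre libraries, against 48, 43.8, 46.1, 46.1 and 50.2 TPM in the HEL no-Cre libraries. All 4 CpG fl/- values lay above all 4 CpG fl/+ values, and all 5 HEL Cre values below all 5 HEL no-Cre values (difference 1.11 ± 0.10, adjusted p = 9.35e-07). Srm, the spermidine synthase, was called with HEL alone. It had 907, 890, 994 and 944 TPM in the CpG fl/- libraries, against 853, 805, 835 and 744 TPM in the CpG fl/+ libraries, and the small CpG effect of 0.21 ± 0.12 was not called. It had 20.9, 18.7, 17.7, 19.6 and 29.7 TPM in the HEL Cre libraries, against 46.5, 41.1, 53.7, 51.9 and 49.1 TPM in the HEL no-Cre libraries, a HEL effect of -1.17 ± 0.11 and a difference of 1.37 ± 0.16 (adjusted p = 1.14e-05). Next by adjusted p were Rrp9 of the U3 snoRNP (0.80 ± 0.09), Rrs1 of the large subunit (0.85 ± 0.12), the rRNA methyltransferase Nop2 (0.70 ± 0.11) and Nop58 of box C/D snoRNPs (0.82 ± 0.12).

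Genes that supply serine, one-carbon units and amino acids behaved alike. Of 15 kept genes 8 lay higher with CpG and 0 lower (median difference 0.55). For this list the unadjusted limma p was under 0.05 in 10 higher and 1 lower genes, and voom called 8 and 0. Phgdh, the first enzyme of serine synthesis, was at 225, 239, 225 and 227 TPM in the CpG fl/- libraries, against 176, 188, 201 and 193 TPM in the CpG fl/+ libraries. It was at 24.3, 27.2, 24.6, 27.4 and 27.4 TPM in the HEL Cre libraries, against 45.3, 44.5, 43.9, 42.1 and 46.1 TPM in the HEL no-Cre libraries. Each library of an Ikaros-deficient arm lay outside the range of its controls, and the difference was 1.01 ± 0.08 (adjusted p = 2.08e-07). Psph, the last enzyme of serine synthesis, had opposite effects of 0.26 ± 0.07 with CpG and -0.42 ± 0.07 with HEL. Shmt2 (-0.70 ± 0.08), Mthfd1l (-0.85 ± 0.09), Mthfd1 (-0.56 ± 0.10) and the leucine transporter Slc7a5 (-0.89 ± 0.13) fell with HEL alone. The Shmt2 gene overlaps another. The Slc7a5 difference lost its call with the higher run alone (CpG effect 0.045 in the lower run and -0.28 in the higher).

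Glycolysis and the cell cycle gave fewer calls in the same direction, beside 15.6% higher and 7.04% lower of all kept genes. Of 16 kept glycolysis genes 4 were higher (Tpi1, Pfkl and the glucose transporters Slc2a1 and Slc2a3, with differences of 0.66 ± 0.10, 0.44 ± 0.12, 0.37 ± 0.11 and 0.51 ± 0.15) and 1 lower (Txnip, an inhibitor of glucose uptake, -0.51 ± 0.16). The Txnip call was lost in 7 of 18 fits that left out 1 library, so that 0 or 1 was lower. The genes Tpi1, Txnip and, of the cell cycle genes below, Cdc20 each overlap another. Slc2a3 lost its call without CpG fl/- replicate 1 or 3. With the higher run alone the calls for Txnip (CpG effect -0.83 in the lower run and -0.57 in the higher), Slc2a3 (CpG effect 0.12 in the lower run and -0.13 in the higher) and Slc2a1 (CpG effect -0.22 in the lower run and -0.22 in the higher) were lost, and with the lower run alone those for Pfkl (CpG effect 0.074 in the lower run and 0.33 in the higher) and Slc2a1. Of 16 kept cell cycle genes 5 were higher and 0 lower (6 and 0 at an unadjusted limma p under 0.05, 4 and 0 by voom). Cyclin E1 (Ccne1) had opposite effects of 0.43 ± 0.12 with CpG and -0.58 ± 0.10 with HEL. Rises of Pcna (0.34 ± 0.12), Cdc20 (0.51 ± 0.17) and Aurka (0.65 ± 0.16) were called with CpG alone, and E2f2 fell with HEL alone (-0.42 ± 0.12). The HEL effects of Pcna (-0.28 ± 0.11, adjusted p = 0.0587) and Cdc20 (-0.37 ± 0.15, adjusted p = 0.0773) pointed down and missed the call. The E2f2 difference lost its call with the higher run alone, and its CpG effect had unlike signs in the runs (CpG effect 0.52 in the lower run and -0.15 in the higher). Cytosolic ribosomal protein genes, in contrast to the factors that build ribosomes, had 0 of 35 higher and 6 lower, or 2 lower without CpG fl/+ replicate 4 (2 and 8 at an unadjusted limma p under 0.05, 0 and 6 by voom). Many of them, such as Rps24, Rpl13 and Rps23, have near-identical copies elsewhere in the genome, so their values are uncertain, and all 3 of these calls were lost with 1 of the runs alone.

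**Figure D3:**
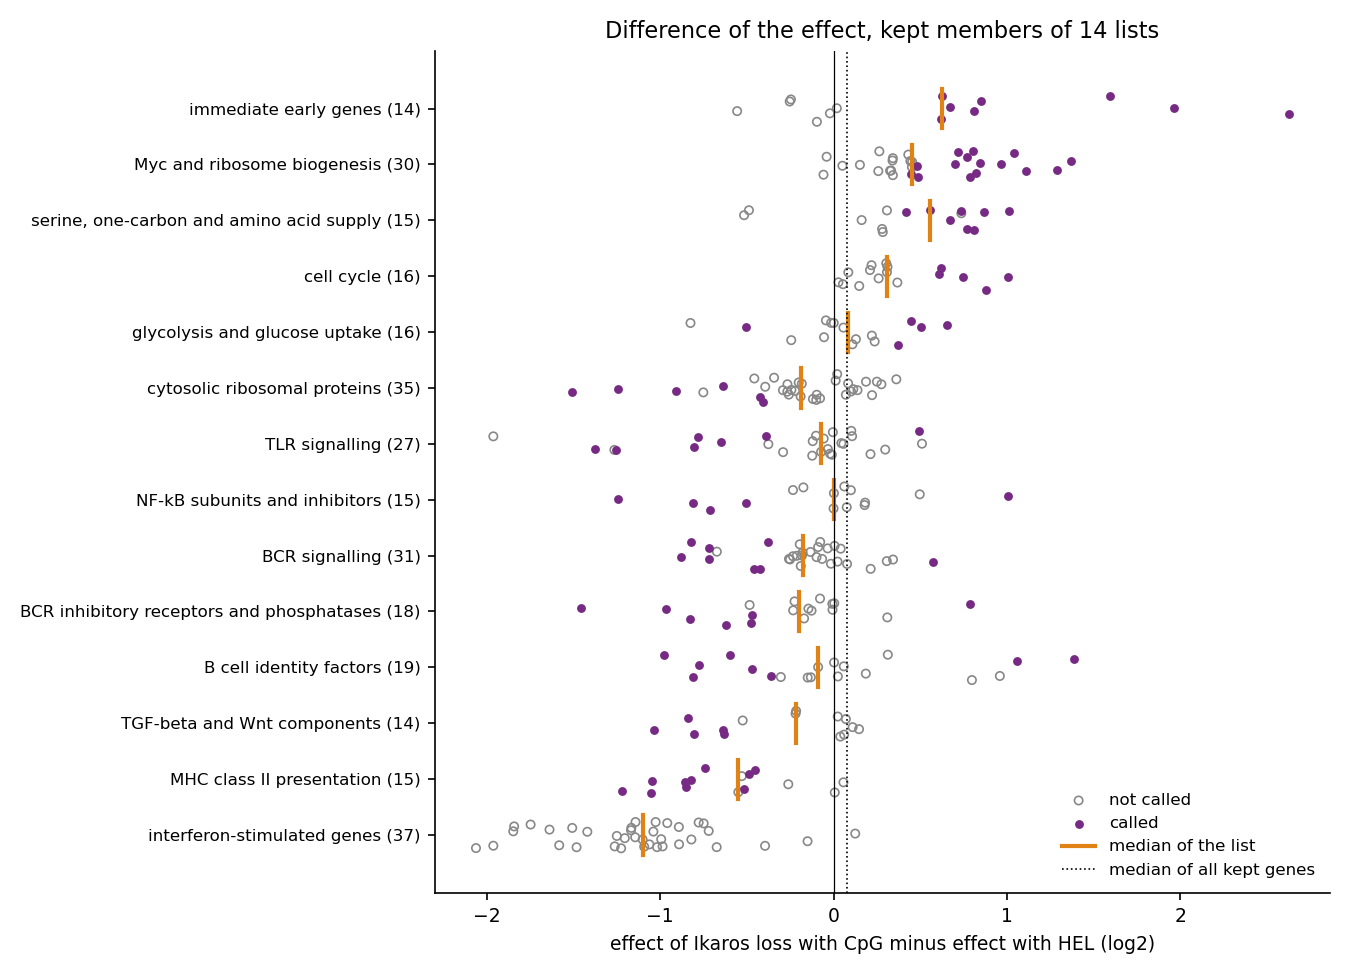
Difference of the effect of Ikaros loss, CpG minus HEL (x axis, log2), for each kept member of 14 lists (rows, with the number of members), with called members filled, the list's median as a bar and the median of all kept genes (0.075) as a dotted line. Immediate early, Myc and serine lists lie to the right, MHC class II and interferon-stimulated lists to the left, the last with no called member.

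MHC class II genes, which present antigen to T cells, lay on the other side. Of 15 kept genes 10 lay lower with CpG and 0 higher (median difference -0.55), and 8 to 12 were lower in the fits that left out 1 library. Within CpG 9 fell and 1 rose in fl/- cells, and within HEL 2 rose and 1 fell in Cre cells. For class II the unadjusted limma p was under 0.05 in 0 higher and 12 lower genes, and voom called 0 and 10. H2-Eb1, a beta chain, was at 320, 462, 301 and 345 TPM in the CpG fl/- libraries, against 697, 607, 500 and 790 TPM in the CpG fl/+ libraries. It was at 8035, 8558, 8538, 8534 and 8095 TPM in the HEL Cre libraries, against 7087, 7209, 7403, 7430 and 7538 TPM in the HEL no-Cre libraries. The arms did not overlap in either setting, lower without Ikaros with CpG and higher with HEL, although the HEL effect of 0.19 ± 0.11 was not called. Its difference was -1.05 ± 0.17 (adjusted p = 0.000254).

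Cd74, the invariant chain, whose gene overlaps another, had 2220, 3196, 1961 and 2018 TPM in the CpG fl/- libraries, against 4921, 3506, 3168 and 3662 TPM in the CpG fl/+ libraries. The highest CpG fl/- library lay just above the lowest CpG fl/+ library. With antigen it had 37032, 38290, 38520, 40429 and 38987 TPM in the HEL Cre libraries, against 36402, 33661, 35647, 35761 and 33271 TPM in the HEL no-Cre libraries, and the difference was -0.85 ± 0.19 (adjusted p = 0.0033). Ciita, the co-activator that all classical class II genes need (chosen after its values were seen), was at 16, 22.3, 12.8 and 12.2 TPM in the CpG fl/- libraries, against 26.4, 17.8, 21.2 and 23.2 TPM in the CpG fl/+ libraries. It was at 336, 323, 346, 345 and 379 TPM in the HEL Cre libraries, against 295, 282, 330, 224 and 251 TPM in the HEL no-Cre libraries. Both pairs of arms overlapped, and the difference was -0.82 ± 0.21 (adjusted p = 0.00845). This call was lost with the lower run alone (CpG effect -0.19 in the lower run and -0.78 in the higher). Levels of these genes were far lower in both CpG groups than in both HEL groups, a contrast that also holds culture and library series.

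H2-Ob, a chain of H2-O, which restrains peptide loading, fell in both settings. It was at 7.67, 8.02, 7.58 and 8.07 TPM in the CpG fl/- libraries, against 18.3, 13.8, 19.2 and 23 TPM in the CpG fl/+ libraries. It was at 471, 521, 570, 507 and 473 TPM in the HEL Cre libraries, against 604, 646, 576, 578 and 670 TPM in the HEL no-Cre libraries. The fall was larger with CpG (-1.13 ± 0.10) than with HEL (-0.28 ± 0.09), with a difference of -0.85 ± 0.14 (adjusted p = 0.000361). Its partner H2-Oa, whose gene overlaps another, differed by -1.22 ± 0.20, the loading chaperone chain H2-DMb2 by -1.05 ± 0.21 and cathepsin S (Ctss), which trims the invariant chain, by -0.74 ± 0.17. The call for the transcription factor Rfx5 (-0.45 ± 0.15) and those for H2-DMa (-0.52 ± 0.17) and H2-Eb2 (-0.49 ± 0.14) were the weakest, and H2-Aa, H2-Ab1, H2-DMb1, Lgmn and March1 were not called.

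The windows before H2-Eb1, H2-Oa and H2-Ob are shown because these genes carry the strongest calls of the list. The letters TGATTGG, which hold the core of the Y box of class II promoters on one strand, are in capitals, and both strands were searched. Each run is the 250 bases before the RefSeq start on GRCm38.p6, plus strand, 5′ to 3′, at chr17:34305617-34305866, chr17:34092129-34092378 and chr17:34238655-34238904 in that order.
H2-Eb1: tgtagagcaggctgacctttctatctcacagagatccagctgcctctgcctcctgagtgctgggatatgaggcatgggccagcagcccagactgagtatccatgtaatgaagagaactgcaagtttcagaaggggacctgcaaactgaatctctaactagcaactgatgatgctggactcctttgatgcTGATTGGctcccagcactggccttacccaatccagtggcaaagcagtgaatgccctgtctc
H2-Oa: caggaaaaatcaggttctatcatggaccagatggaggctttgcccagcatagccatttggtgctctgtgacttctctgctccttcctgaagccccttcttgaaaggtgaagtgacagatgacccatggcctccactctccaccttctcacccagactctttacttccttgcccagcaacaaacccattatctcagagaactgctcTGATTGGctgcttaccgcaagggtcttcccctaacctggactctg
H2-Ob: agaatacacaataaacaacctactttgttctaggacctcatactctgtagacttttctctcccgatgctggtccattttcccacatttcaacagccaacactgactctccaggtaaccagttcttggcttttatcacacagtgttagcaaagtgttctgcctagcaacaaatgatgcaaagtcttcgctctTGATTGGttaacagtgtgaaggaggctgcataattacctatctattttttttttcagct
The motif stands 61, 45 and 59 bases before the start. It was present in 8 of 12 class II genes with a window, in 3 of 21 immediate early genes and in 7.65% of all 27025 windows. A search of both strands for TGGGAA, the core of the letters that Ikaros binds, found it in 2 of the 12 class II, 4 of the 21 immediate early and 8 of the 23 Myc list windows, beside 21.5% of all. The E box CACGTG was in 0, 5 and 1 of these windows in the same order, beside 6.05% of all.

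**Figure D4:**
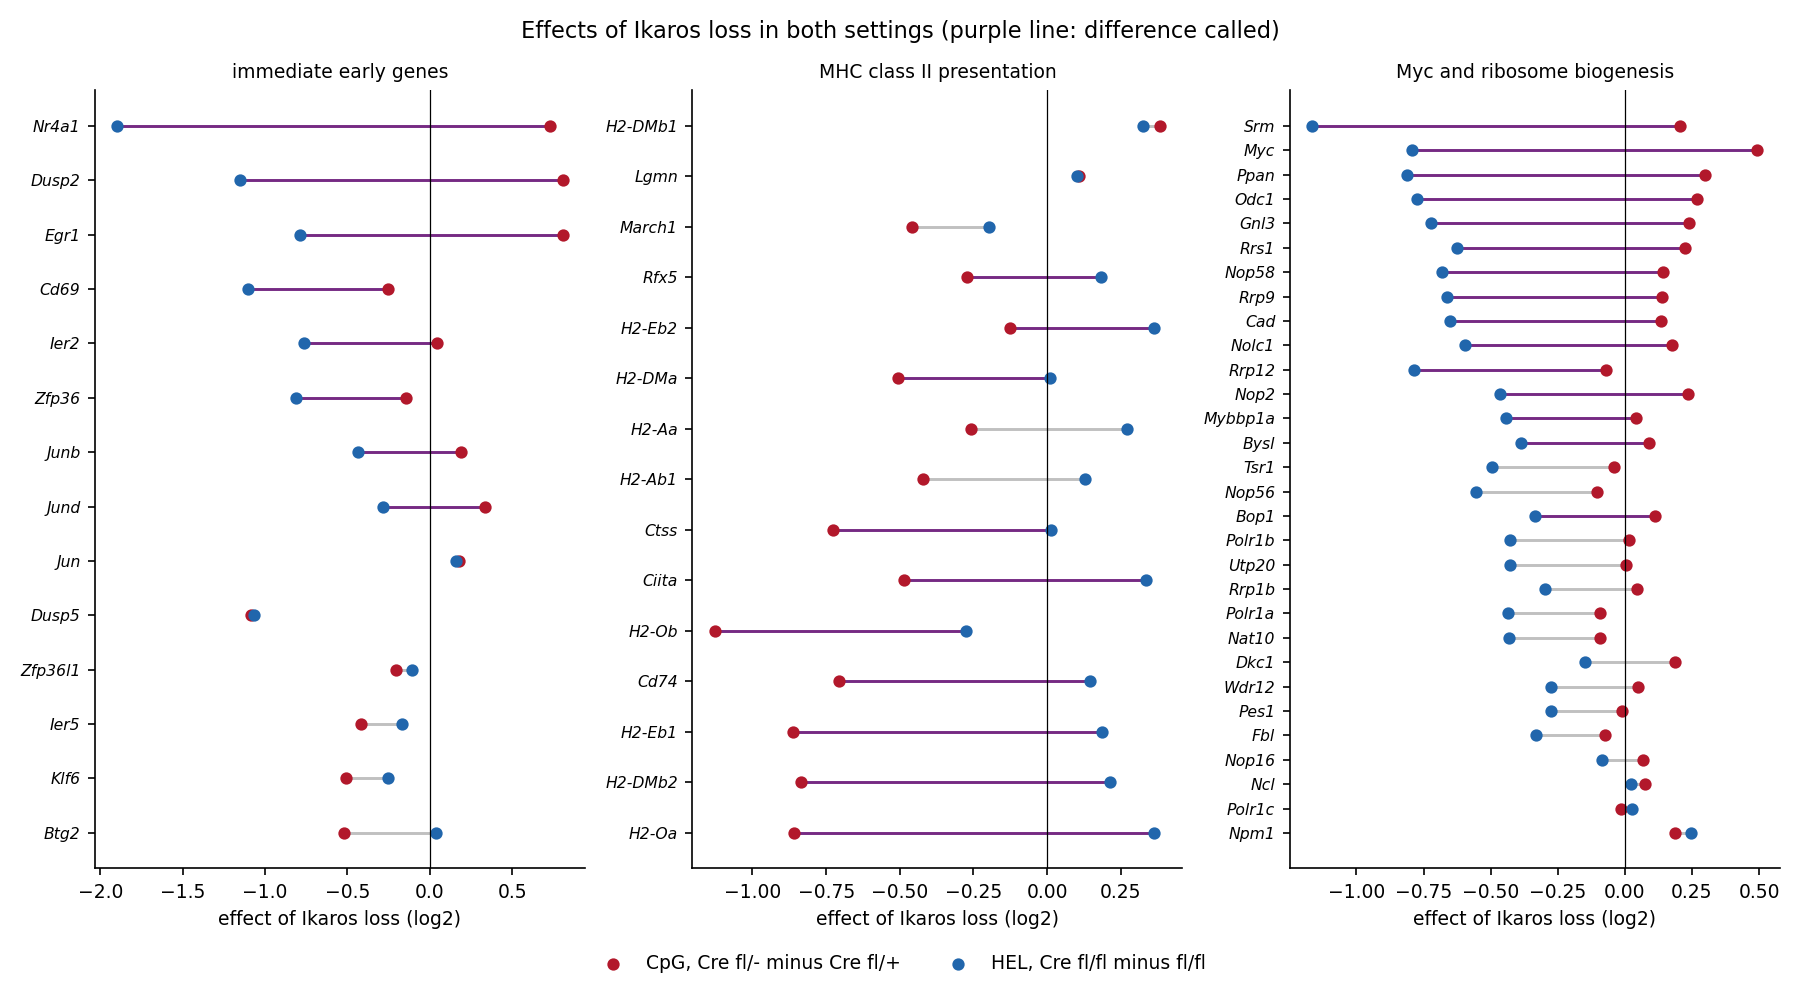
Effect of Ikaros loss (x axis, log2) with CpG (red) and with HEL (blue) for each kept member of the immediate early, MHC class II and Myc and ribosome biogenesis lists, ordered by the difference and joined by a purple line where it was called. The red points lie right of the blue ones for 8 called immediate early genes and 15 called Myc genes, and left of them for 10 called class II genes.

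Genes of Toll-like receptor signalling were lower with CpG in 6 of 27 kept members and higher in 1. Of the kept receptors Tlr9 was called, while Tlr1, Tlr2 and Tlr7 were not. Tlr9, the receptor for CpG itself, had 76.6, 87.2, 70.4 and 66.7 TPM in the CpG fl/- libraries, against 138, 109, 147 and 151 TPM in the CpG fl/+ libraries. With antigen it had 167, 161, 180, 201 and 237 TPM in the HEL Cre libraries, against 159, 135, 149, 118 and 95.7 TPM in the HEL no-Cre libraries. Both pairs of arms were apart, lower without Ikaros with CpG and higher with HEL (difference -1.38 ± 0.20, adjusted p = 0.000129). Irak3, an inhibitor of the pathway, fell in both settings and more with CpG (-1.09 ± 0.10, against -0.31 ± 0.09 with HEL). The adaptor Pik3ap1 (BCAP) fell with CpG alone (-0.73 ± 0.14), the adaptor Ticam1 (TRIF) rose with HEL alone (0.52 ± 0.12) and Tirap, the 1 member with a higher effect (1 to 2 with 1 library left out), fell with HEL alone (-0.25 ± 0.09). The calls for Pik3ap1 (CpG effect -0.60 in the lower run and -0.86 in the higher) and Tirap (CpG effect 0.18 in the lower run and 0.29 in the higher) were lost with the lower run alone. Ly86, a partner of the Toll-like receptor homologue Cd180, fell with CpG alone (-0.35). Scimp, an adaptor of Toll-like receptors, was at 0.612 ± 0.354 TPM in CpG fl/- cells and 5.83 ± 2.69 TPM in CpG fl/+ cells and lost its call (-1.25 ± 0.33) with a pseudocount of 5 and with the lower run alone (CpG effect -1.31 in the lower run and -2.74 in the higher).

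Among NF-kB subunits and inhibitors the smallest adjusted p was that of Tnfaip3. Tnfaip3 (A20), a ubiquitin-editing inhibitor of NF-kB, was at 33.7, 35.2, 31.3 and 33.7 TPM in the CpG fl/- libraries, against 56.5, 69.8, 83.8 and 86.9 TPM in the CpG fl/+ libraries. It was at 19.6, 17.6, 19.1, 23 and 23.8 TPM in the HEL Cre libraries, against 16.1, 17.8, 19.7, 17.2 and 22.7 TPM in the HEL no-Cre libraries. The CpG arms were far apart and the HEL arms overlapped, with a difference of -1.24 ± 0.17 (adjusted p = 6.5e-05). Nfkbie, an IkB protein, had opposite effects (-0.57 ± 0.09 with CpG, 0.24 ± 0.08 with HEL), Relb fell with CpG alone (-0.64 ± 0.11; the call for its difference was lost without CpG fl/- replicate 3 and with the lower run alone, CpG effect -0.47 in the lower run and -0.82 in the higher) and Nfkb2, whose gene overlaps another, rose with HEL alone (0.46 ± 0.09). The CpG effect of Nfkb2 pointed down and missed the call (-0.255 ± 0.097, adjusted p = 0.0638). Nfkbid, another IkB protein, was the 1 of 15 members with a higher effect (1.01 ± 0.23; 2 were higher without CpG fl/+ replicate 3), beside 4 with a lower one.

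Components of B cell receptor signalling were lower with CpG in 7 of 31 kept genes and higher in 1 (1 to 3 with 1 library left out). Vav2, a guanine nucleotide exchange factor, had opposite effects (-0.44 ± 0.09 with CpG, 0.44 ± 0.08 with HEL). The kinase Lyn (-0.56 ± 0.07) and the calcium channel Itpr2 (-0.70 ± 0.11) fell with CpG alone, Bcl10 rose with HEL alone (0.40 ± 0.07), and the kinase Prkcb, the 1 with a higher effect, fell with HEL alone (-0.38 ± 0.07). The CpG effect of Prkcb pointed up and missed the call (0.19 ± 0.07, adjusted p = 0.0636). The Lyn call was lost with the lower run alone (CpG effect -0.40 in the lower run and -0.72 in the higher) and that of Bcl10 with the higher run alone (CpG effect -0.17 in the lower run and 0.11 in the higher). A list made up mainly of inhibitory receptors and phosphatases had 6 lower and 1 higher of 18. With 1 library left out these were 4 to 6 and 0 to 2. It also holds genes that are neither, among them Fcrla, Fcrl1 and Cbl, which are counted among the lower ones. Cd22, a receptor that damps B cell receptor signals, was at 104, 132, 106 and 121 TPM in the CpG fl/- libraries, against 201, 196, 223 and 224 TPM in the CpG fl/+ libraries. It was at 671, 623, 637, 663 and 659 TPM in the HEL Cre libraries, against 689, 676, 753, 608 and 626 TPM in the HEL no-Cre libraries. The CpG arms were apart and the HEL arms overlapped (difference -0.82 ± 0.11, adjusted p = 3.59e-05). Fcrla (-1.33 ± 0.10), Fcrl1 (-0.70 ± 0.07) and Siglecg (-0.90 ± 0.14) likewise fell with CpG alone. Of the 10 B cell markers used to check the sort, 4 had a lower effect with CpG, among them Pax5 (-0.36 ± 0.12), whose call was lost in 9 of 18 fits that left out 1 library and with the lower run alone (CpG effect -0.45 in the lower run and -0.54 in the higher).

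B cell identity factors were mixed, with 2 of 19 higher and 6 lower (2 to 4 and 3 to 6 in the fits that left out 1 library). Of all kept genes 15.6% were higher and 7.04% lower. Irf8, a factor of B cell and myeloid lineages, was at 696, 750, 623 and 583 TPM in the CpG fl/- libraries, against 972, 890, 756 and 900 TPM in the CpG fl/+ libraries. It was at 891, 884, 845, 848 and 940 TPM in the HEL Cre libraries, against 720, 653, 743, 675 and 562 TPM in the HEL no-Cre libraries. Both pairs of arms were apart in opposite directions (difference -0.81 ± 0.13, adjusted p = 0.000234). Tcf3 (E2A) had the inverse pattern, with a CpG effect of 0.60 ± 0.15 and a HEL effect of -0.45 ± 0.13, and Id3, an inhibitor of E2A proteins, fell with HEL alone (-0.996 ± 0.26). The fall of Spib was called with CpG alone (-0.45 ± 0.14), and its HEL effect of 0.33 ± 0.13 missed the call (adjusted p = 0.0579). The call for Bach2 (-0.60 ± 0.20), a repressor of plasma cell fate, was lost in 11 of 18 fits that left out 1 library. It was also lost with the lower run alone (CpG effect -0.45 in the lower run and -0.97 in the higher), and the Bach2 gene overlaps another.

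The 37 genes that fell with CpG and rose with HEL were led by Cfp. Cfp encodes properdin, a stabiliser of complement convertase, and was at 27.6, 45.1, 12.4 and 10.2 TPM in the CpG fl/- libraries, against 93, 46.6, 60.1 and 47.8 TPM in the CpG fl/+ libraries. It was at 57.9, 73, 79.2, 45.9 and 65.4 TPM in the HEL Cre libraries, against 27.5, 25.7, 34.1, 25.6 and 17.3 TPM in the HEL no-Cre libraries. The arms did not overlap in either setting, the CpG gap being small (difference -2.80 ± 0.46, adjusted p = 0.000364; CpG effect -0.88 within the lower library numbers and -2.15 within the higher ones). After it came Evi2a (-2.25 ± 0.20), whose gene overlaps another, the surface receptor Slamf7 (-2.14 ± 0.38), the G protein regulator Rgs2 (-1.82 ± 0.22), the signalling adaptor Traf1 (-1.58 ± 0.20) and Pld4, an endolysosomal nuclease (-1.44 ± 0.18).

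Genes that rose in both settings differed mainly by degree. Tmem176b, a membrane protein of the Ms4a-related family, was at 301, 295, 289 and 269 TPM in the CpG fl/- libraries, against 10.6, 6.92, 6.47 and 5.68 TPM in the CpG fl/+ libraries. It was at 216, 236, 198, 224 and 230 TPM in the HEL Cre libraries, against 13.5, 11, 12.6, 19.7 and 16 TPM in the HEL no-Cre libraries. It rose by 5.13 ± 0.15 with CpG and 3.86 ± 0.14 with HEL, and the difference was 1.28 ± 0.21 (adjusted p = 0.000283). Tst, a mitochondrial sulfurtransferase, was at 61.7, 61.5, 69.5 and 63 TPM in the CpG fl/- libraries, against 16.4, 12.6, 11.6 and 9.3 TPM in the CpG fl/+ libraries. It was at 8.78, 6.25, 5.66, 6.62 and 7.78 TPM in the HEL Cre libraries, against 4.7, 3.71, 3.73, 3.72 and 4.71 TPM in the HEL no-Cre libraries. The rise was 2.29 ± 0.14 with CpG and 0.64 ± 0.12 with HEL, the largest difference among genes called in both settings with the same sign and a higher CpG effect (1.65 ± 0.19). Cd24a, a surface glycoprotein high on immature B cells, had 1872, 1531, 1554 and 1390 TPM in the CpG fl/- libraries, against 805, 592, 850 and 611 TPM in the CpG fl/+ libraries. With antigen it had 271, 274, 264, 297 and 284 TPM in the HEL Cre libraries, against 242, 200, 252, 223 and 222 TPM in the HEL no-Cre libraries, so that the arms were apart in both settings and the difference was 0.87 ± 0.15 (adjusted p = 0.000529). Syndecan-1 (Sdc1), a plasma cell marker, rose by 1.70 ± 0.15 with CpG and 0.38 ± 0.13 with HEL.

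Other shared rises were larger with HEL. Aif1, a calcium-binding protein best known from macrophages, was at 55.7, 52.7, 51.9 and 50.3 TPM in the CpG fl/- libraries, against 16.9, 16.9, 11.6 and 12.5 TPM in the CpG fl/+ libraries. It was at 43.3, 47.2, 36.6, 27.9 and 40.5 TPM in the HEL Cre libraries, against 2.63, 2.64, 2.91, 1.85 and 0.709 TPM in the HEL no-Cre libraries. All Ikaros-deficient libraries lay above all controls, and the difference was -1.90 ± 0.28 (adjusted p = 0.000143). Ms4a6c (-1.77 ± 0.14), the protease inhibitor Lxn (-1.73 ± 0.16), Dkkl1 (-1.71 ± 0.22) and the linker histone gene H1f0 (-1.21 ± 0.24) had the same order of effects. Ifitm2, which blocks viral entry at membranes, was at 289, 344, 223 and 259 TPM in the CpG fl/- libraries, against 20.4, 23, 34 and 30.2 TPM in the CpG fl/+ libraries. It was at 109, 84, 61.4, 72.2 and 91.6 TPM in the HEL Cre libraries, against 3.08, 2.21, 3.76, 3.25 and 2.14 TPM in the HEL no-Cre libraries. Its HEL no-Cre values lay far below its CpG fl/+ values, and the called difference of -1.10 ± 0.25 lost its call with a pseudocount of 5 and with the lower run alone (CpG effect 3.80 in the lower run and 2.87 in the higher). A pseudocount of 5 also ended the call for the TGF-beta co-receptor Eng (-0.84 ± 0.14), whose gene overlaps another, and for the catenin Ctnnd1. The Ctnnd1 difference was -1.03 ± 0.15 with a pseudocount of 1 but 0.014 with a pseudocount of 5, so that which of its shared rises is larger rests on the scale.

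Among effects called with CpG alone, the largest higher difference was that of Tagap. Tagap, a GTPase-activating protein, had 9.81, 9.49, 9.51 and 9.04 TPM in the CpG fl/- libraries, against 2.25, 2.52, 1.72 and 2.25 TPM in the CpG fl/+ libraries. With antigen the arms overlapped, with 12.9, 9.64, 11, 13.8 and 15.5 TPM in the HEL Cre libraries, against 11.7, 13.7, 16.3, 14.5 and 17.4 TPM in the HEL no-Cre libraries. The difference was 1.94 ± 0.17 (adjusted p = 8.72e-07). Rises of Pde2a, a cyclic nucleotide phosphodiesterase (1.71 ± 0.21), Suox, the sulfite oxidase (1.57 ± 0.14), and Adap1 (1.75 ± 0.21) were also called with CpG alone. The HEL effect of Adap1 also pointed up and missed the call (0.47 ± 0.19, adjusted p = 0.0748). Bcl2a1b (-1.33 ± 0.24), which shares sequence with its gene copies, Rnase6 (-1.45 ± 0.18) and Kmo of kynurenine metabolism (-1.47 ± 0.15) fell with CpG alone. Id2 rose by 0.98 ± 0.31 with CpG, but the call for its difference (1.32 ± 0.42) was lost without CpG fl/- replicate 3, HEL Cre replicate 2 or HEL no-Cre replicate 3 (highest adjusted p 0.0678).

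Effects called with HEL alone held the largest called difference of all kept genes. Slamf9, a surface receptor of the Slam family, was at 247, 185, 224, 178 and 220 TPM in the HEL Cre libraries, against 17, 14, 15.7, 19.8 and 15.5 TPM in the HEL no-Cre libraries. After CpG it was near the rule's limit, with 3.51, 3.78, 3.54 and 5.46 TPM in the CpG fl/- libraries, against 1.21, 3.77, 6.7 and 8.56 TPM in the CpG fl/+ libraries. The HEL arms were far apart and the CpG arms overlapped (difference -3.68 ± 0.40, adjusted p = 6.49e-06; CpG effect 0.52 within the lower library numbers and -0.66 within the higher ones). Progranulin (Grn), a lysosomal glycoprotein, rose by 1.72 ± 0.14 with HEL, beside a CpG effect of -0.22 ± 0.16. Rises of Gstt3 (2.65 ± 0.25), Serpinb6b (1.91 ± 0.31) and Gng12 (1.499 ± 0.19) were called with HEL alone too. The CpG effect of Gstt3 also pointed up and missed the call (0.68 ± 0.28, adjusted p = 0.0852). The summed myeloid markers were 31.2 to 43.3 TPM in HEL Cre libraries, against 14.2 to 18.5 TPM in HEL no-Cre libraries, and their part in these rises and in that of Aif1 was not tested.

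Pim1, a survival kinase, was the reverse. It was at 153, 148, 171 and 171 TPM in the CpG fl/- libraries, against 130, 97.1, 267 and 192 TPM in the CpG fl/+ libraries. It was at 8.39, 7.96, 10.2, 10 and 8.78 TPM in the HEL Cre libraries, against 24.6, 27.3, 29, 24.8 and 37.8 TPM in the HEL no-Cre libraries. The CpG arms overlapped, with effects of unlike sign in the 2 runs of library numbers (CpG effect 0.42 within the lower library numbers and -0.41 within the higher ones), and the HEL arms did not (difference 1.56 ± 0.29, adjusted p = 0.000911). Neurl3, a ubiquitin ligase, had 51.9, 51.9, 84.2 and 92.7 TPM in the CpG fl/- libraries, against 45.1, 41.3, 51.9 and 53.7 TPM in the CpG fl/+ libraries. With antigen it had 50.7, 79.2, 79.4, 86.3 and 65.8 TPM in the HEL Cre libraries, against 182, 199, 185, 197 and 220 TPM in the HEL no-Cre libraries, with a difference of 1.95 ± 0.24 (adjusted p = 2.23e-05). The Neurl3 rise with CpG of 0.50 ± 0.18 missed the call (adjusted p = 0.0516). The MAP kinase phosphatase Dusp4 (-2.27 ± 0.25), the pseudokinase Trib2 (-1.31 ± 0.27), the phosphatase Cdc25b, which starts mitosis (-1.25 ± 0.11), and Cd55, a complement regulator (-1.09 ± 0.13), fell with HEL alone. Xbp1, the transcription factor of the secretory programme, rose with HEL alone. It was at 159, 158, 154 and 130 TPM in the CpG fl/- libraries, against 169, 125, 141 and 127 TPM in the CpG fl/+ libraries. It was at 147, 116, 129, 125 and 132 TPM in the HEL Cre libraries, against 82.7, 84.6, 71.9, 66.7 and 71.9 TPM in the HEL no-Cre libraries, and the difference was -0.67 ± 0.14 (adjusted p = 0.002).

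Interferon-stimulated genes had the lowest median difference of the 14 plotted lists, -1.10, but 0 of 37 kept genes were called in either direction by limma, 0 had an unadjusted p under 0.05, and voom called 0. Their mean log2(TPM + 1) was 2.82, 3.04, 4.94 and 5.74 in CpG fl/- libraries 1 to 4, against 2.81, 5.09, 6.98 and 6.59 in CpG fl/+ libraries 1 to 4. It was 5.17 to 5.78 in HEL Cre libraries, against 4.28 to 6.4 in HEL no-Cre libraries. The last 2 libraries of each CpG group are those of the higher library numbers. With terms for the CpG run and for replicate 5 of both HEL groups, 8 members had a lower effect with CpG. Leaving out single libraries gave 0 to 8. Neutrophil markers were 123 TPM in CpG fl/+ replicate 4, and their part was not tested.

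**Figure D5:**
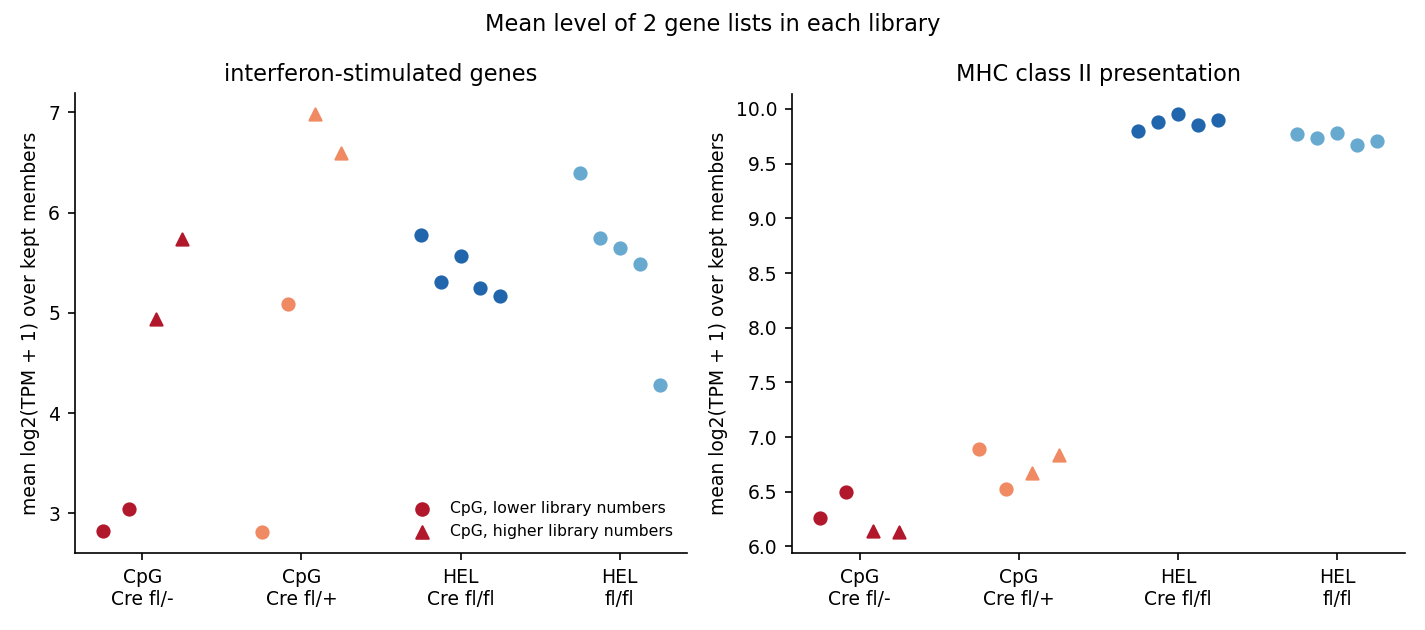
Mean log2(TPM + 1) over kept members of the interferon-stimulated list (left) and of the MHC class II list (right) in each library (points), with CpG libraries of the higher library numbers as triangles. The interferon-stimulated list spans 2.81 to 6.98 in CpG libraries and is higher in the higher run within each genotype. CpG fl/+ replicate 2 of the lower run (5.09) still lies above CpG fl/- replicate 3 of the higher run (4.94). The class II list lies between 6.13 and 6.89 in CpG libraries and between 9.67 and 9.95 in HEL libraries.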

How the data were processed

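The authors deposited TPM values, 1 file per library with 24732 genes. Per the submitters' processing notes the mm9 build was used, with deepTools 3.0.1, SAMtools 1.4, featureCounts 1.5.0, Bowtie and TopHat 1.4.1 named. The role of each tool, the annotation and the strandedness are not given in the sources used here. Per the labels' protocols, RNA was prepared with RNeasy Plus Mini and Dynabeads mRNA kits. Of 28 RNA-seq libraries 18 were used. Chromatin samples (4 ChIP-seq, 8 ATAC-seq) were not analysed here.

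Genes with at least 1 TPM in at least 4 of the 18 libraries entered a limma fit (version 3.58.1, R 4.3.3) of log2(TPM + 1) values with 4 group means, a mean-variance trend and two-sided moderated tests, adjusted by Benjamini-Hochberg and called under 0.05. The code was tested on simulated data. Log2 values understate changes of low genes. The steps within a gene gave whole reads (tolerance 0.01) for 18843 of 18843 genes above 0, which serve as depth and for limma-voom. No replicate pair agreed within sampling noise. Genes that the files mark as overlapping or duplicated (1127 of the kept) are uncertain.

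The named genes are Ikzf1, Ikzf3, the 6 largest differences per pattern and direction, and up to 6 called members per list by adjusted p (2 by level where none was called). Members and lists were chosen with earlier results of these data known. Alternatives covered scaling, filters, pseudocounts, the run of library numbers, sex and single libraries. Some genes of the naming rule are not reported here. Promoter windows are RefSeq's, on GRCm38.p6.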

Additional observations from a re-analysis of the deposited data

Results flagged for a closer look

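Values of single libraries stood apart from the rest of their group in 5 of 132 groups of 4 or 5 examined, where chance gives about 1 in 20. These were Ikzf1 in HEL no-Cre replicate 3 (261 TPM, the others 195 to 214), Srm in HEL Cre replicate 5 (29.7 TPM, the others 17.7 to 20.9), Phgdh in CpG fl/- replicate 2 (239 TPM, the others 225 to 227) and Slamf9 in CpG fl/- replicate 4 (5.46 TPM, the others 3.51 to 3.78). The summed neutrophil markers stood at 123 TPM in CpG fl/+ replicate 4, the others at 0.101 to 14.9 TPM.

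The effect of Ikaros loss differed between CpG and HEL, by the test of the difference itself, for 28 of the genes given library by library. It was higher with CpG for Nr4a1 (2.63), Gadd45b (2.09), Hopx (2.35), Dusp2 (1.96), Neurl3 (1.95), Tagap (1.94), Tst (1.65), Egr1 (1.60), Pim1 (1.56), Srm (1.37), Myc (1.29), Tmem176b (1.28), Ppan (1.11), Phgdh (1.01) and Cd24a (0.87). It was lower with CpG for Slamf9 (-3.68), Cfp (-2.80), Aif1 (-1.90), Tlr9 (-1.38), Tnfaip3 (-1.24), Ifitm2 (-1.10), H2-Eb1 (-1.05), Cd74 (-0.85), H2-Ob (-0.85), Cd22 (-0.82), Ciita (-0.82), Irf8 (-0.81) and Xbp1 (-0.67), all on the log2 scale.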

How the results depend on the processing

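The called differences (1776 genes, 1224 higher and 552 lower), the opposite effects (221) and the effects called with CpG (1865) and with HEL (2393) were recomputed under 30 other settings and 2 added after seeing the data. Opposite effects fell to 125 and lower differences to 352 with all 28 libraries in the fit. With the CpG libraries of the lower numbers alone, an addition, they fell to 101, with 1109 called differences (760 higher, 349 lower) and 940 CpG effects. Leaving out 1 library gave 145 to 261 opposite effects, the 145 without CpG fl/+ replicate 4, and 1474 to 2045 called differences, 998 to 1371 higher and 462 to 674 lower, with 1446 to 2139 CpG and 1993 to 2665 HEL effects. All other counts stayed within 1.5 times. Terms for the run of CpG library numbers and for replicate 5 of both HEL groups, fitted together, gave 2158 called differences (303 opposite). Voom on recovered reads gave 1730, a term for sex 1743, no filter on low values 1559 and a rule at 10 TPM 1505. Of 162 named genes with a called difference 123 kept the call and its sign under the 29 of these that refit single genes (the rule at 10 TPM does not), and 134 in the 18 fits without 1 library. The sign changed for Ctnnd1 alone (0.014 with a pseudocount of 5). The cause of these changes was not tested. The Tlr9, Nr4a1, H2-Eb1 and Phgdh calls were among those kept. Depth limits low genes most, and the CpG libraries, at 12126702 to 16086067 reads, are the shallower ones. No paired analysis was possible because replicate numbers here only name libraries in accession order.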

Other observations

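Of 16 kept genes of TNF receptor and survival pathways, 3 lay higher with CpG and 2 lower, beside 15.6% and 7.04% of all kept genes. The lower ones were Traf1 (-1.58 ± 0.20) and Bcl2a1b (-1.66 ± 0.32), both named above, and the higher ones follow. Bid, a pro-apoptotic member of the Bcl-2 family, fell with HEL alone (-0.79 ± 0.07; CpG effect 0.000 ± 0.08), and Bcl2l1, which encodes the anti-apoptotic Bcl-xL, rose with CpG alone (0.56 ± 0.10; HEL effect 0.018 ± 0.09). Bax, the third, differed by 0.25 ± 0.07, and the call was lost with median-ratio scaling, with voom and with the lower run of CpG library numbers alone (CpG effect -0.10 in the lower run and 0.014 in the higher).

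Subunits of NuRD, the remodelling complex that Ikaros recruits, had 3 of 13 higher and 2 lower (2 to 4 and 1 to 2 with 1 library left out). Of all kept genes 15.6% were higher and 7.04% lower. Rbbp7, whose gene overlaps another, had opposite effects (0.30 ± 0.08 with CpG and -0.32 ± 0.07 with HEL), Mbd2 fell with HEL alone (-0.27 ± 0.06) and Gatad2b fell with CpG alone (-0.59 ± 0.10). The Gatad2b call was lost with the lower run alone (CpG effect -0.46 in the lower run and -0.73 in the higher). Of 18 kept cholesterol synthesis genes limma called 0 higher and 1 lower (0 and 4 at an unadjusted p under 0.05, 0 and 1 by voom), Ebp (-0.40 ± 0.09); 2 were lower without CpG fl/+ replicate 4. Scarb1, a receptor for high-density lipoprotein, rose in both settings and more with HEL (0.94 ± 0.10, against 0.35 ± 0.11 with CpG), and this call too was lost with the lower run alone (CpG effect 0.36 in the lower run and 0.34 in the higher).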
